A study of Mus musculus with 24 samples.

Results

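The tables held 40 cytochrome P450 genes outside the Cyp4a group, of 16921 genes in all. They were every row whose mouse symbol starts with Cyp and a digit, without the Cyp4a genes, Cyp24a1 and Cyp27b1, which took 7 further rows away. Of the 40, 36 passed the filter on low counts together with 15165 genes in all and could be tested. The filter left out Cyp8b1, Cyp2c68, Cyp17a1 and Cyp1a1, whose mean counts per library were 7.46, 5.92, 3.71 and 3.04.

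Cytochrome P450 enzymes are heme proteins that insert oxygen into fatty acids, sterols, vitamins, hormones and foreign compounds. Those of the endoplasmic reticulum take their electrons from the reductase Por, helped by cytochrome b5. In the kidney they are richest in the proximal tubule, where members of families 2 and 4 turn arachidonic acid into epoxides and hydroxy acids that act on vessels and on sodium transport.

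Kidney cortex was taken from male mice of C57BL6/J background at 22 months of age, which had eaten their diets from 3 months of age. KO_LP mice lacked FGF21, a hormone that rises when dietary protein is scarce, and ate 5% protein. KO_NP mice lacked FGF21 and ate 20% protein, WT_LP mice were wild type on 5% protein, and WT_NP mice were wild type on 20% protein. Each group held 6 libraries, 1 per mouse with its own animal label, and the replicate number used here is only a name. Casein was the protein source in all groups, and the labels do not say how FGF21 was deleted.

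Lexogen QuantSeq libraries read 1 tag near the 3' end of a transcript, so values are CPM (counts scaled to a common library total) with no division by length, also where levels of different genes are set side by side. Library totals ran from 8.47 to 14.1 M counts in KO_LP, 10.7 to 16.3 in KO_NP, 15.2 to 18.4 in WT_LP and 10.6 to 21.1 in WT_NP. Fgf21 itself was not analysed here, so the genotype labels have no check of their own. KO_LP 4, KO_LP 6 and WT_NP 1 stood apart: KO_LP 6 and KO_LP 4 gave the 2 lowest summed CPM of KO_LP, and WT_NP 1 the lowest of WT_NP, for 10 markers of proximal tubule segments S1 and S2, and KO_LP 4 and WT_NP 1 the highest for 11 macrophage and dendritic markers. The summed macrophage markers were 3779 CPM in KO_LP 4 against 1150.1 to 1967 in the other KO_LP libraries, and 2620.1 CPM in WT_NP 1 against 798 to 1043 in the other WT_NP libraries. In WT_LP, the libraries WT_LP 3 and WT_LP 4 stood apart in the same way: their S1 and S2 sums were 5169 and 5845 CPM against 6912 to 9076 in the other WT_LP libraries, and their macrophage sums were 1953 and 2055 CPM against 803 to 1265. Counts of called members are also given without the first 3 libraries, and without these 2.

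Few genes held most tags of the 40 P450 genes in the old kidney cortex. The Cyp4a genes, Cyp24a1 and Cyp27b1 were not counted in the shares and ranks given here. Cyp4b1 hydroxylates fatty acids and activates some foreign aromatic compounds. Its median share of the tags of the 40 genes was 41.2% in KO_LP, 43.1% in KO_NP, 42.0% in WT_LP and 43.3% in WT_NP. In each of the 24 libraries 4 genes were among the 5 most abundant: Cyp4b1, the arachidonic acid epoxygenase Cyp2j5, Cyp2e1, which oxidises ethanol and acetaminophen, and the testosterone hydroxylase Cyp2a4. Cyp2j13 was the other in 17 libraries, Cyp2a5 in 4, Cyp51 in 2 and Cyp2d9 in 1. Together with Cyp2j13 the 4 held 72.5% to 87.1% of the tags of the 40 genes in a library. The lowest share was that of KO_LP 6, and the highest was in a KO_NP library.

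Among the 10 of the 40 genes with the highest mean level, Cyp4b1 averaged 2611 CPM over the 24 libraries, Cyp2j5 averaged 1198 CPM, Cyp2e1 averaged 643 CPM and Cyp2a4 averaged 422 CPM. The rest of the 10 were Cyp2j13, the coumarin hydroxylase Cyp2a5, the testosterone hydroxylase Cyp2d9, the lanosterol demethylase Cyp51, Cyp2d12 and the epoxygenase Cyp2c23, between 68.4 and 199 CPM. By role, family 2 held 20 of the 40 genes, family 4 outside Cyp4a held 7, sterol and bile acid metabolism 6, the xenobiotic families 1 and 3 held 3, retinoic acid clearance 2, and steroid hormone synthesis and the orphan gene Cyp20a1 1 each. Cyp1a1, the classic target of the aryl hydrocarbon receptor, had 0 to 11 counts per library, and Cyp17a1, which makes steroid hormone precursors, likewise had 0 to 11.

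The genes differed widely in how much mice of a group varied. Cyp2j6 had a coefficient of variation of 9.22% in KO_LP, 8.99% in KO_NP, 13.9% in WT_LP and 5.69% in WT_NP. The mitochondrial sterol hydroxylase Cyp27a1, which starts the acidic route to bile acids, had 12.9%, 9.47%, 10.8% and 12.98% in the same groups. Cyp26b1, which clears retinoic acid, had 59.0%, 57.4%, 61.7% and 104%. Over the 15 genes that averaged 30 CPM or more these were the highest values in KO_NP, WT_LP and WT_NP, while Cyp2a5 was higher in KO_LP with 93.6%. The level of Cyp26b1 ran from 19.8 to 125 CPM in KO_LP, 10.5 to 56.0 in KO_NP, 10.1 to 81.5 in WT_LP and 9.93 to 83.9 in WT_NP, so that all groups overlapped.

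The sum of the 40 genes had a lowest, median and highest value of 3810.3, 5418 and 6186 CPM in KO_LP, 5579.8, 6946 and 7376 in KO_NP, 3665, 5713 and 8169 in WT_LP, and 4549, 6549 and 7158 in WT_NP. Every pair of groups overlapped, although 4 of the 6 KO_LP libraries lay below all KO_NP libraries. The WT_LP median fell in a gap: WT_LP 3, WT_LP 4 and WT_LP 6 had 3665 to 4388 CPM, and the other WT_LP libraries 7039 to 8169. Written as a percentage of the scaled library total, the same sums had a median of 0.542% in KO_LP, 0.695% in KO_NP, 0.571% in WT_LP and 0.655% in WT_NP. That total includes the TMM factor, so these are not shares of the raw counts. The plot of these sums against proximal tubule markers shows where each library lies on both. In such bulk samples fewer proximal tubule cells and less P450 RNA per cell cannot be told apart.

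**Figure D1:**
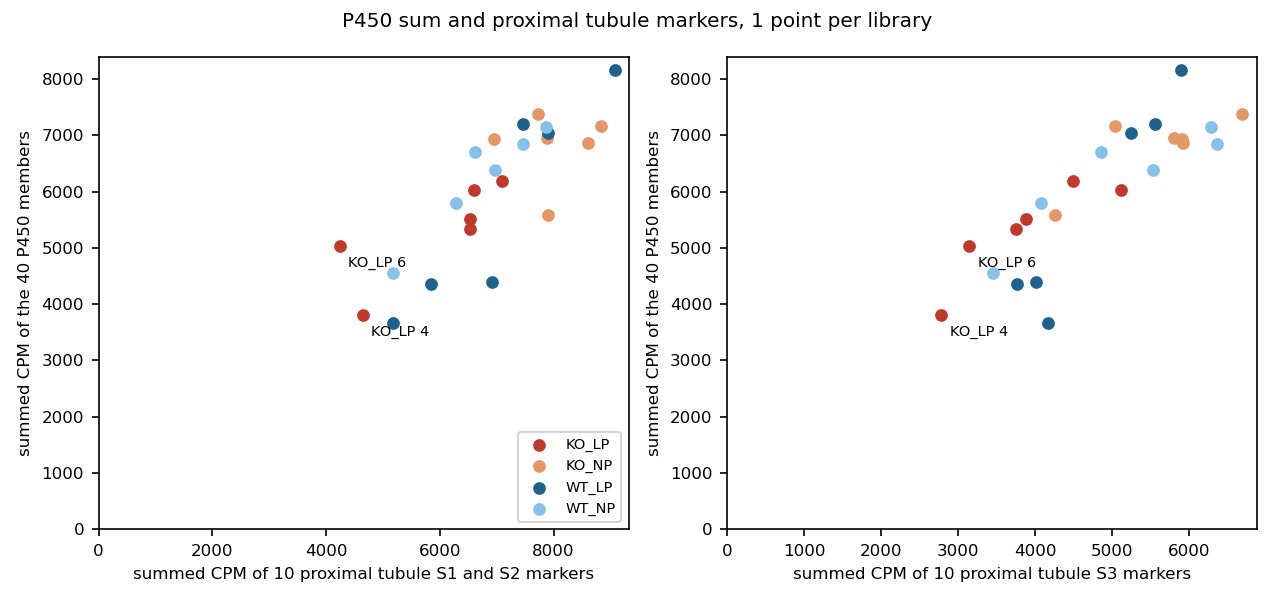
Summed CPM of the 40 P450 genes (vertical) against the summed CPM of 10 markers of proximal tubule segments S1 and S2 (left) or S3 (right), 1 point per library, coloured by group. KO_LP 4 has the lowest P450 sum of its group, 3810.3 CPM, at an S3 marker sum of 2782 CPM, and both sums are high in most KO_NP libraries.

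Without FGF21, low protein shifted single P450 genes in both directions. Cyp2j9, Cyp2d22 and Cyp4v3 were higher in KO_LP than in KO_NP, and the abundant epoxygenase Cyp2j5 and the leukotriene hydroxylase Cyp4f15 were lower. The folds of the 3 that were higher lay between 1.59 and 1.75. Cyp2j5 was 1.59-fold lower and Cyp4f15 was 2.53-fold lower. By edgeR's quasi-likelihood test, with p-values adjusted after Benjamini and Hochberg across the whole table, 5 of 36 genes (13.9%) were called at an adjusted p under 0.05, against a background of 7.17% of all genes tested (3.59% higher and 3.58% lower). Of the 36, 13 had an unadjusted p under 0.05, against 27.9% of all genes tested. The median log2 fold of the 36 was -0.01, and that of all genes tested was 0.03, with 17 of the 36 above 0 and 19 below.

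The promoters of 4 of these genes are shown because they moved in opposite directions: Cyp2j9 and Cyp4v3 were higher and Cyp2j5 and Cyp4f15 lower in KO_LP. Each run is 300 bases 5' to 3' on the gene's own strand, from 250 bases before to 50 after the start of transcription in RefSeq for GRCm38.p6, and 32 of the 40 genes had such an entry. Capitals mark matches to 5 short motifs searched on both strands: TATAAA (core promoter), GTTAAT (HNF1), AGGTCA (nuclear receptors), GCGTG (aryl hydrocarbon receptor) and CCAAT. The regions are chr4:96664070-96664369 for Cyp2j5, chr4:96591436-96591735 for Cyp2j9 and chr8:45333114-45333413 for Cyp4v3, all on the minus strand, and chr17:32685409-32685708 on the plus strand for Cyp4f15.
Cyp2j5: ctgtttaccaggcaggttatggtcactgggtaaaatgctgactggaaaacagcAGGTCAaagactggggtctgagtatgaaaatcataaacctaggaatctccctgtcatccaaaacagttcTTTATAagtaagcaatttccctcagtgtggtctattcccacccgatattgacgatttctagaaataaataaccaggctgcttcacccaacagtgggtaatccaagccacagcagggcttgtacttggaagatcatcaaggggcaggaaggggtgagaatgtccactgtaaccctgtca
Cyp2j9: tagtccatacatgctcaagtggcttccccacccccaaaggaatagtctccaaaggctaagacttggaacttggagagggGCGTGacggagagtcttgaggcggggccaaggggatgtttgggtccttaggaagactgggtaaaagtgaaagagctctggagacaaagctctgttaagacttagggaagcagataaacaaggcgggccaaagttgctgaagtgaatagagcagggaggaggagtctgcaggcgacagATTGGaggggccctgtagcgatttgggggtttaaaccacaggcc
Cyp4v3: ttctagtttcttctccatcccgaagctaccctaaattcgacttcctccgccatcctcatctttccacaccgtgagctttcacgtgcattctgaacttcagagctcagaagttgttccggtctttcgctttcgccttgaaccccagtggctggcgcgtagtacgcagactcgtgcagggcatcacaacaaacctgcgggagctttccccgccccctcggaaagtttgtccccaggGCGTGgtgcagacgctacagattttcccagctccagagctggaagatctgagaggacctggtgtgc
Cyp4f15: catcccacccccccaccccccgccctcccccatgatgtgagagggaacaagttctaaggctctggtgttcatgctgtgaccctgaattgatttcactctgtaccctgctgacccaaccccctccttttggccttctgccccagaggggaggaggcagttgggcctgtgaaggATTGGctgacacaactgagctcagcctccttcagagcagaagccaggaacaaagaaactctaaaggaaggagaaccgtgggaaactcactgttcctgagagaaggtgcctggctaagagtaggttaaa
The Cyp2j5 window held AGGTCA at position -197 and TATAAA, read on the other strand, at -128. The Cyp2j9 window held GCGTG at -171 and CCAAT, read on the other strand, at 7. The Cyp4v3 window held GCGTG at -16, and the Cyp4f15 window held CCAAT on the other strand at -78. No match overlapped another. Of the 32851 promoters of that length, 13.6% held TATAAA, 7.10% GTTAAT, 16.3% AGGTCA, 32.4% GCGTG and 37.4% CCAAT. The aligned Cyp2j5 and Cyp2j9 windows of these neighbouring genes were 48.4% identical, against 47.5% to 50.7% for the other pairs among the 4. A match is a string of letters and not a measured binding site.

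Cyp2j9, a gene first known from mouse brain whose enzyme hydroxylates arachidonic acid, had a lowest, median and highest level of 8.51, 11.1 and 23.3 CPM in KO_LP and 5.93, 7.31 and 8.70 CPM in KO_NP. The highest KO_LP value belonged to KO_LP 6, and only the lowest KO_LP library fell inside the KO_NP range. Its log2 fold was 0.81 (SE 0.188, adjusted p = 0.0232, 6 of 6 libraries above the KO_NP mean). Without KO_LP 6 it was 0.55 (adjusted p = 0.0416).

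Cyp2d22, a mouse relative of the human drug enzyme CYP2D6, had 17.9, 18.6 and 29.7 CPM in KO_LP and 11.1, 12.5 and 15.8 CPM in KO_NP. The ranges did not overlap, and the log2 fold was 0.67 (SE 0.153, adjusted p = 0.0231). Cyp4v3, the counterpart of human CYP4V2, which hydroxylates fatty acids, had 9.94, 11.5 and 16.3 CPM in KO_LP and 6.15, 7.74 and 8.38 CPM in KO_NP, again without overlap. Its log2 fold was 0.70 (SE 0.196, adjusted p = 0.0376).

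Cyp2j5, which makes epoxides of arachidonic acid in the proximal tubule, had 460.2, 967 and 1122 CPM in KO_LP and 1190.2, 1473 and 1591 CPM in KO_NP. Every KO_LP library lay below every KO_NP library, and KO_LP 6 was the lowest. This was a log2 fold of -0.67 (SE 0.170, adjusted p = 0.0271). Cyp4f15 had 0.345, 0.788 and 1.59 CPM in KO_LP and 0.988, 1.97 and 3.21 CPM in KO_NP, which overlapped, from 6 to 13 counts per library in KO_LP and 10 to 41 in KO_NP. Its log2 fold was -1.34 (SE 0.370, adjusted p = 0.0371), with all 6 KO_LP libraries below the KO_NP mean. Cyp2j5, Cyp2d22 and Cyp4v3 were the 3 of 36 genes whose groups did not overlap, against 3.71% of all genes tested.

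These calls depended on which libraries were in the fit, as did the number of genes called in the whole table. Without WT_LP 3 and WT_LP 4 the same 5 genes were called, with 1324 genes (8.61%) of the whole table called. Without KO_LP 4, KO_LP 6 and WT_NP 1 together 0 of the 5 remained called, with adjusted p = 0.0550 for Cyp2j9, 0.0794 for Cyp2d22, 0.0878 for Cyp2j5 and 0.160 for Cyp4v3 and Cyp4f15, while 36 genes of the whole table were called in place of 1087. Leaving out KO_NP 5 also ended all 5 (adjusted p from 0.0522 to 0.0855), with 122 genes of the whole table called. Leaving out KO_LP 4 or KO_NP 1 ended all but Cyp2j9 and Cyp2d22, with 136 and 454 genes called. Leaving out KO_LP 5, KO_LP 6, KO_NP 3 or KO_NP 4 ended Cyp4v3 and Cyp4f15, with 399 to 623 genes called. Cyp4f15 was also lost without KO_LP 2 (adjusted p = 0.0502), and Cyp4v3 without KO_NP 6 (adjusted p = 0.0604). With 1 surrogate variable Cyp2j9 and Cyp2d22 were called, and Cyp2j5 (adjusted p = 0.0653), Cyp4v3 (0.0977) and Cyp4f15 (0.0778) were not. Every one of these folds kept its sign.

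**Figure D2:**
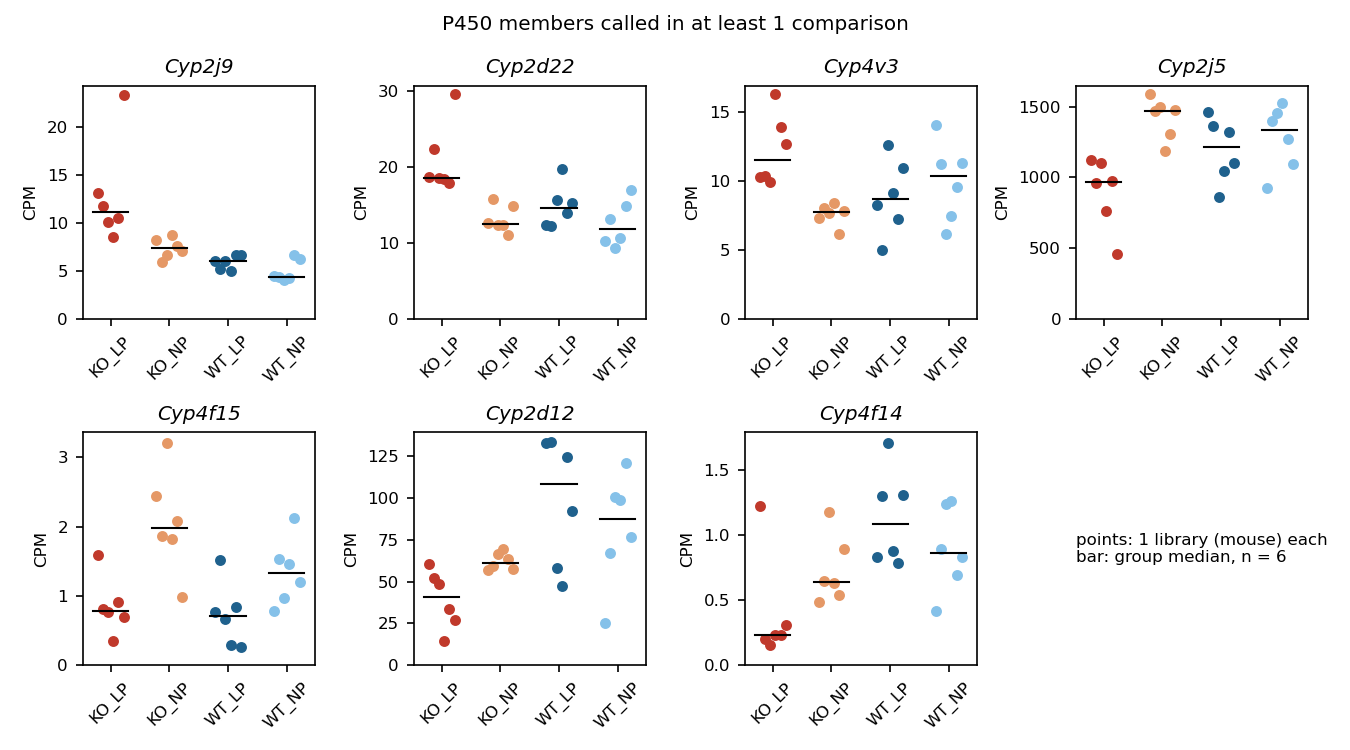
CPM of the 7 P450 genes called in at least 1 comparison, 1 point per library and a bar at the group median (n = 6), with groups KO_LP, KO_NP, WT_LP and WT_NP from left to right. Cyp2j9 is highest in KO_LP, with KO_LP 6 at 23.3 CPM, and Cyp2j5 has all KO_LP libraries at or under 1122 CPM, below all KO_NP libraries.

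Further genes lay lower in KO_LP without passing the test. Cyp51, the demethylase of cholesterol synthesis, had 45.9, 74.1 and 137 CPM in KO_LP and 71.1, 137 and 211 CPM in KO_NP (log2 fold -0.80, SE 0.264, adjusted p = 0.0625, 6 of 6 libraries below the KO_NP mean). The ranges overlapped, and the gene was called by DESeq2 (adjusted p = 0.0248) and without KO_LP 1 (0.0194), KO_NP 6 (0.0473) or WT_NP 1 (0.0434), within a range of 0.0194 to 0.256 over all settings tried. The log2 fold of Cyp2d12 was -0.67 (SE 0.331, adjusted p = 0.187), and that of Cyp4f14, a leukotriene hydroxylase, was -1.05 (SE 0.425, adjusted p = 0.112). Cyp4f14 was called without KO_LP 1 (log2 fold -1.66, adjusted p = 0.0117), the library with its highest KO_LP value, and by limma voom, within a range of 0.0117 to 0.338 over all settings tried. Both retinoic acid genes had positive folds that missed the threshold, 1.15 for Cyp26b1 (SE 0.555, adjusted p = 0.179) and 0.87 for Cyp26a1 (SE 0.410, adjusted p = 0.167).

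Other well known members did not pass the test. The fold of Cyp27a1 was 0.01 on the log2 scale (SE 0.0974, adjusted p = 0.963), and its group medians were 35.4 CPM in KO_LP and 33.9 CPM in KO_NP. Cyp4b1 had 1520.2, 2328 and 2948 CPM in KO_LP and 2191, 3029 and 3232 CPM in KO_NP (log2 fold -0.38, SE 0.231, adjusted p = 0.291). The ranges overlapped. The folds of Cyp2e1 (-0.37, SE 0.201), Cyp2a4 (0.13, SE 0.223), Cyp2a5 (0.38, SE 0.461), Cyp2d9 (0.01, SE 0.259), Cyp2c23 (-0.38, SE 0.316), the oxysterol hydroxylase Cyp7b1 (-0.13, SE 0.368), the vitamin D hydroxylase Cyp2r1 (0.32, SE 0.260) and the estrogen hydroxylase Cyp1b1 (0.34, SE 0.153) also missed the threshold, with adjusted p from 0.150 to 0.979.

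**Figure D3:**
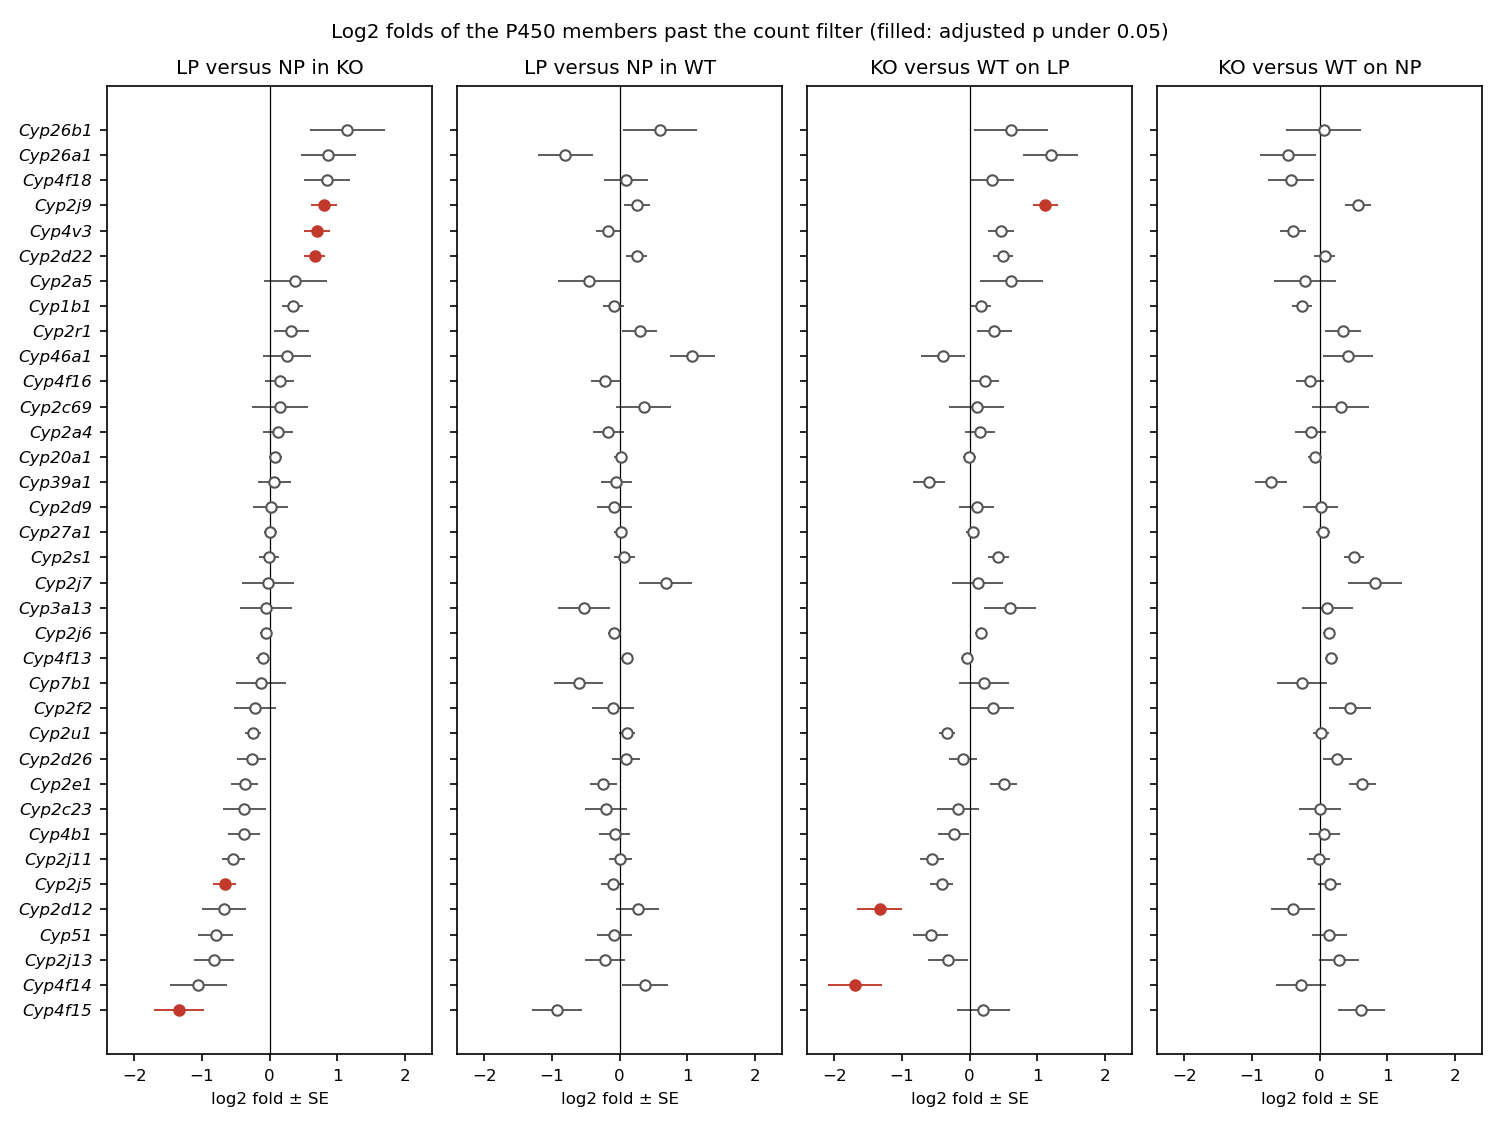
Log2 folds with the standard error of the fit for the 36 P450 genes tested, in 4 comparisons, ordered by the fold of KO_LP over KO_NP. Filled points have an adjusted p under 0.05: 5 for diet in KO, 0 for diet in WT, 3 for KO over WT on LP and 0 on NP.

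The 6 Cyp2j genes lie in 1 block of 636.6 kb on chromosome 4 (GRCm38, from 96027534 to 96664154), in the order Cyp2j13, Cyp2j7, Cyp2j11, Cyp2j6, Cyp2j9 and Cyp2j5, all on the minus strand. Their diet folds in KO differed between neighbours. The log2 fold of Cyp2j13 was -0.82 (SE 0.299, adjusted p = 0.0825) and that of Cyp2j11 was -0.53 (SE 0.173, adjusted p = 0.0574), both short of the threshold. Cyp2j7 (-0.02, SE 0.384) and Cyp2j6 (-0.05, SE 0.0857) lay near 0, Cyp2j9 rose and Cyp2j5, its neighbour, fell. DESeq2 called Cyp2j11 and Cyp2j13 as well (adjusted p = 0.0376 for Cyp2j13). Cyp2j11 was also called by limma voom, by limma on the normalized values, and without KO_LP 1 or WT_NP 1. Those fits called 6.84% to 13.1% of all genes tested.

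**Figure D4:**
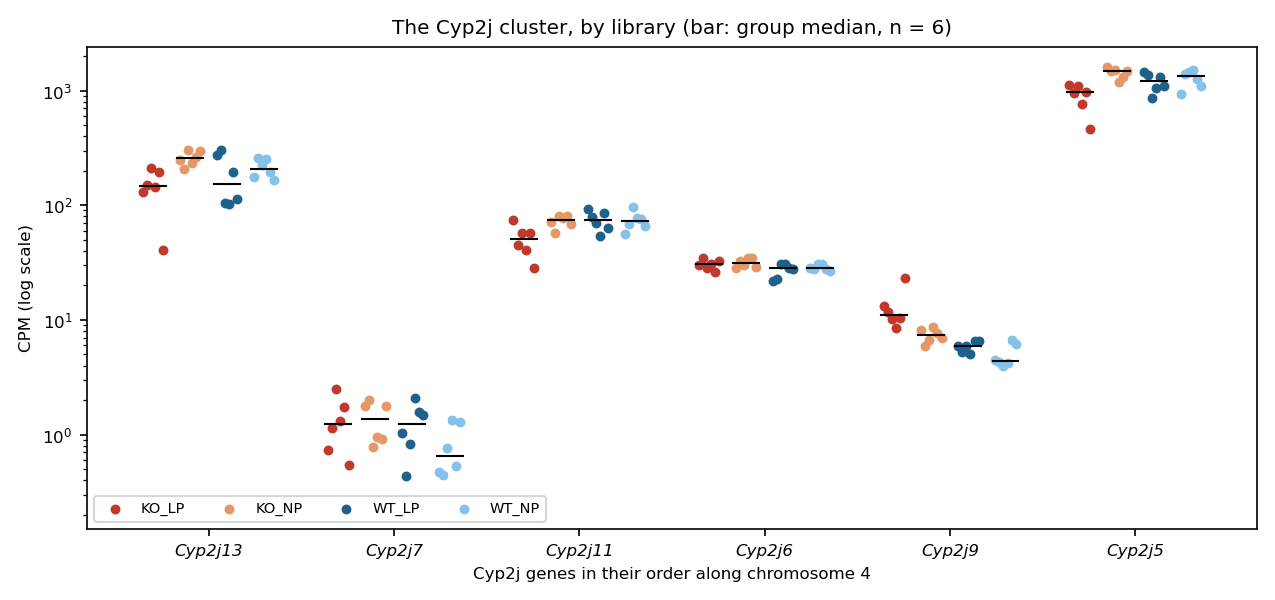
CPM on a log scale of the 6 Cyp2j genes in their order along chromosome 4, 1 point per library and a bar at each group median (n = 6), with KO_LP, KO_NP, WT_LP and WT_NP from left to right within each gene. Medians of Cyp2j5 are 967 CPM in KO_LP and 1473 CPM in KO_NP, those of Cyp2j9 11.1 and 7.31 CPM, and the log2 fold of Cyp2j6 is -0.05.

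Set against each other within a library, which needs no scaling between libraries, Cyp2j9 had 9.16 to 50.6 tags per 1000 Cyp2j5 tags in KO_LP (median 11.4) and 4.03 to 7.31 in KO_NP (median 4.94). In wild type the same ratio ran from 3.82 to 6.90 in WT_LP (median 4.88) and from 2.74 to 5.61 in WT_NP (median 3.92). All 6 KO_LP libraries were above every other library. Both genes were called for diet in KO from these same libraries, in opposite directions. A higher ratio in KO_LP than in KO_NP follows from that and is no separate support. Other pairs of genes were not compared in this way. KO_LP 6 had 50.6, and the other KO_LP libraries had 9.16 to 12.2. No 50-base stretch in the last 500 bases of Cyp2j5 or Cyp2j9 transcripts occurred in another gene's transcripts, and the reads were 50 bases long.

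The 4 Cyp2d genes of a block on chromosome 15 (82370527 to 82794294) did not move together either. Diet folds in KO were 0.67 for Cyp2d22, 0.01 for Cyp2d9, -0.67 for Cyp2d12 and -0.27 for Cyp2d26 (SE 0.211, adjusted p = 0.430), and only Cyp2d22 was called. These genes resemble each other: of the 50-base stretches near the 3' end, 14.97% of those of Cyp2d22, 32.2% of Cyp2d9, 17.3% of Cyp2d12 and 25.7% of Cyp2d26 also occur in other genes. How reads that fit several genes were counted is not given in the sources used here, so Cyp2d values are uncertain in that respect, as are those of Cyp2a4 (44.4% shared) and Cyp2a5 (29.9%). Cyp4v3 also overlaps Gm45753 on its own strand and Cyp51 overlaps Akap9 on the other, and whether strand was used in counting is not stated. Of the Cyp4f genes, 4 lie on chromosome 17 and Cyp4f18 on chromosome 8, and under 1% of the stretches of Cyp4f14 and Cyp4f15 were shared.

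Markers of several cell types differed between the diet groups in KO, where 3.59% of all genes tested were called higher and 3.58% lower. All 10 markers of segments S1 and S2 had folds below 0 (2 of 10 called lower, median log2 fold -0.29), with sums of 4247 to 7089 CPM in KO_LP and 6949.5 to 8840.2 CPM in KO_NP. Of 10 S3 markers, 2 were called lower and 1 higher (median -0.52), with sums of 2782 to 5115 CPM in KO_LP and 4264 to 6687 CPM in KO_NP. All 11 macrophage and dendritic markers had folds above 0 and 4 were called higher (median 0.99), with sums of 1150.1 to 3779 CPM in KO_LP and 815 to 1099 CPM in KO_NP. All 9 T and NK cell markers tested had folds above 0 (1 called higher, median 1.09), with sums of 44.4 to 176 CPM in KO_LP and 25.5 to 60.3 CPM in KO_NP. All 7 B and plasma cell markers tested had folds above 0 (0 called, median 1.58), with sums of 1352 to 14641 CPM in KO_LP and 1348 to 2830.5 CPM in KO_NP. All 8 fibroblast and mural markers had folds above 0 (0 called, median 0.45), with sums of 199 to 502 CPM in KO_LP and 201 to 328 CPM in KO_NP. Of 7 hepatocyte markers tested, 5 had folds below 0 (2 called lower and 1 higher, median -0.94), with sums of 165 to 355 CPM in KO_LP and 151 to 271 CPM in KO_NP. Of 7 adrenal cortex markers tested, 5 had folds above 0 (1 called higher, median 0.41), with sums of 79.2 to 133 CPM in KO_LP and 100.4 to 138 CPM in KO_NP, and Star, which starts steroid synthesis, was at or under 0.897 CPM in both. Of 3 adipocyte markers tested, 2 had folds above 0 (0 called, median 0.71), with sums over 6 markers of 329 to 829 CPM in KO_LP and 337 to 709 CPM in KO_NP, and Adipoq was at or under 0.0764 CPM in KO_LP and 1.42 CPM in KO_NP. The part of these cell types in the P450 folds was not tested.

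In wild type mice low protein changed no P450 gene past the threshold. By edgeR 0 of 36 were called, against a background of 0%, and 2 had an unadjusted p under 0.05, where 3.82% of all genes tested did. For 0 of the 36 did the groups not overlap, against 0.290% of all genes tested. DESeq2 and limma voom also called 0 P450 genes, as did the fits without the 3 libraries and without WT_LP 3 and WT_LP 4. Of all genes tested, DESeq2 called 0.120%, limma voom 0.0396% and the fits without these libraries 0%. The median log2 fold was -0.06 for the 36 and -0.01 for all genes tested. Cyp46a1, which hydroxylates cholesterol and is best known from neurons, had the smallest p: 0.449, 0.954 and 1.42 CPM in WT_LP and 0.184, 0.354 and 0.828 CPM in WT_NP. The ranges overlapped, and the log2 fold was 1.08 (SE 0.339, adjusted p = 0.820, 6 of 6 libraries above the WT_NP mean). Cyp4f15 (-0.92) and Cyp26a1 (-0.80) came next, each with an adjusted p of 1.

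The genes called in KO had these wild type values for the same contrast. Cyp2j9 had 5.01, 5.97 and 6.61 CPM in WT_LP and 4.004, 4.36 and 6.65 CPM in WT_NP, which overlapped. Cyp2j5 had 864, 1213 and 1461 CPM in WT_LP and 927, 1337 and 1526 CPM in WT_NP (log2 fold -0.10, SE 0.169, adjusted p = 1). Cyp2d22 had 12.2, 14.6 and 19.8 CPM in WT_LP and 9.39, 11.9 and 17.0 CPM in WT_NP, and Cyp4v3 had 5.00, 8.69 and 12.6 CPM in WT_LP and 6.14, 10.4 and 14.1 CPM in WT_NP. For Cyp4f15, the values were 0.262, 0.716 and 1.52 CPM in WT_LP and 0.782, 1.33 and 2.13 CPM in WT_NP. Log2 folds of WT_LP over WT_NP were 0.25 for Cyp2j9 and for Cyp2d22, -0.16 for Cyp4v3 and -0.92 for Cyp4f15, all short of the threshold.

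Whether the diet effect differed between genotypes was tested as the LP effect in KO minus that in WT. By edgeR 0 of 36 genes were called, against a background of 0%, with 6 at an unadjusted p under 0.05 where 16.0% of all genes tested had one. DESeq2, limma voom and limma on the normalized values called 0 P450 genes as well. Of all genes tested, DESeq2 called 0.635% and the limma fits 0%. Cyp4v3 came first with a difference of 0.86 on the log2 scale (SE 0.274, adjusted p = 0.194), then Cyp26a1 with 1.67 (SE 0.578, adjusted p = 0.217) and Cyp4f14 with -1.42 (SE 0.545, adjusted p = 0.233). The diet effects called in KO are thus not shown to differ from those in WT.

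On normal protein, loss of FGF21 changed no P450 gene past the threshold. By edgeR 0 of 36 were called, against a background of 0.574%, and 4 had an unadjusted p under 0.05 (12.6% of all genes tested). The groups overlapped for each of the 36, while 1.57% of all genes tested had groups apart. DESeq2 and limma voom called 0 P450 genes, as did the fits without the 3 libraries and without WT_LP 3 and WT_LP 4. Of all genes tested, these called 1.35%, 1.02%, 0.724% and 0.586% in that order. The median log2 fold was 0.07 for the 36 and -0.02 for all genes tested. Cyp2s1, an enzyme of epithelia outside the liver, had 4.98, 6.45 and 7.21 CPM in KO_NP and 3.59, 4.55 and 5.00 CPM in WT_NP (log2 fold 0.51, SE 0.153, adjusted p = 0.135). The ranges touched only at their edges, and all 6 KO_NP libraries were above the WT_NP mean.

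Cyp2e1 had 611, 892 and 1029.8 CPM in KO_NP and 524, 551 and 626 CPM in WT_NP. Only the lowest KO_NP library fell inside the WT_NP range. The log2 fold was 0.63 (SE 0.202, adjusted p = 0.164), and a fit on these 12 libraries alone called it (adjusted p = 0.0149), where all other settings gave up to 0.449 and no call. Cyp39a1, an oxysterol hydroxylase of bile acid synthesis, had 1.23, 1.52 and 2.37 CPM in KO_NP and 2.03, 2.62 and 4.23 CPM in WT_NP (log2 fold -0.72, SE 0.237, adjusted p = 0.179, 6 of 6 libraries below the WT_NP mean). With 1 surrogate variable Cyp2s1 was called (adjusted p = 0.0112), and without KO_LP 6 Cyp2j9 was (log2 fold 0.57, adjusted p = 0.0488).

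Fgf21 lies on chromosome 7, as do 6 of the P450 genes. Cyp2f2, Cyp2a5, Cyp2a4 and Cyp2s1 lie 18.5, 18.8, 19.3 and 19.8 Mb from it, Cyp2r1 68.9 Mb and Cyp2e1 95.2 Mb. In the fit of all 24 libraries with 4 group means none of the 6 was called for genotype on either diet. With 1 surrogate variable Cyp2s1 was called on normal protein (adjusted p = 0.0112) and on low protein (0.0145). Cyp2e1 was called on normal protein in the fit on only the libraries compared (0.0149).

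On low protein, KO mice had more Cyp2j9 and less Cyp4f14 and Cyp2d12 than wild type mice. By edgeR 3 of 36 genes (8.33%) were called, 1 higher and 2 lower, against a background of 2.93% of all genes tested (1.35% higher and 1.59% lower). The median log2 fold was 0.14 for the 36 and 0.02 for all genes tested, with 13 at an unadjusted p under 0.05 (21.1% of all genes tested). Without KO_LP 4, KO_LP 6 and WT_NP 1 the count was 1, which was Cyp2j9, where 1.30% of all genes tested were called. Without WT_LP 3 and WT_LP 4 it was 5, which added Cyp2d22 and Cyp2j11 to the 3, where 5.76% of all genes tested were called. This comparison and that of diet in KO share the KO_LP libraries.

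Cyp2j9 had the clearest difference. The KO_LP libraries had 8.51, 11.1 and 23.3 CPM and the WT_LP libraries 5.01, 5.97 and 6.61 CPM. The groups did not overlap, which held for 1 of the 36 genes and for 2.27% of all genes tested. The log2 fold was 1.12 (SE 0.188, adjusted p = 0.00145), or 2.17-fold higher, and it was 0.86 without KO_LP 6 (adjusted p = 0.00169). Cyp2j9 was called under all 10 alternatives and without each of the 24 libraries, with adjusted p from 9.5e-06 to 0.0221. On normal protein its log2 fold of KO over WT was 0.57 (SE 0.193, adjusted p = 0.193), with 6 of 6 KO_NP libraries above the WT_NP mean. The LP effect in KO minus that in WT was 0.55 (SE 0.269, adjusted p = 0.315). The genotype difference of Cyp2j9 is thus not shown to be particular to low protein.

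Cyp4f14 had 0.153, 0.230 and 1.23 CPM in KO_LP and 0.785, 1.09 and 1.71 CPM in WT_LP, from 2 to 10 counts per library in KO_LP and 13 to 31 in WT_LP. All KO_LP libraries but KO_LP 1 lay below every WT_LP library. The log2 fold was -1.70 (SE 0.399, adjusted p = 0.0208, 5 of 6 libraries below the WT_LP mean). Without KO_LP 1 it was -2.302 (adjusted p = 0.000922). The call was lost without KO_LP 4 (adjusted p = 0.0622) or KO_LP 5 (0.05003), in a fit on these 12 libraries alone (0.0714) and without the 3 libraries that stood apart (0.0912).

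Cyp2d12 had 14.3, 40.8 and 60.4 CPM in KO_LP and 47.7, 108 and 133 CPM in WT_LP. The ranges overlapped, with KO_LP 4 lowest and 6 of 6 KO_LP libraries below the WT_LP mean. The log2 fold was -1.33 (SE 0.332, adjusted p = 0.0327), or 2.51-fold lower. This call was lost without KO_LP 4, KO_LP 5, KO_LP 6, WT_LP 1, WT_LP 2, WT_LP 5 or WT_LP 6 (adjusted p from 0.0532 to 0.0826), in a fit on these 12 libraries alone (0.0846) and without the 3 libraries (0.0585). On normal protein it had 57.0, 61.4 and 69.6 CPM in KO_NP and 25.3, 87.6 and 121 CPM in WT_NP (log2 fold -0.39, adjusted p = 0.654).

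Below these came Cyp2d22 (log2 fold 0.49, SE 0.150, adjusted p = 0.0691), Cyp2j11 (-0.56, SE 0.172, adjusted p = 0.0718) and Cyp26a1 (1.197, SE 0.406, adjusted p = 0.0990), each with 6 of 6 KO_LP libraries on its side of the WT_LP mean. With 1 surrogate variable 9 genes were called, among them Cyp2d22, Cyp2j11 and Cyp26a1, in a fit that called 12.9% of all genes tested. Cell type markers differed here too, set against 1.35% of all genes tested called higher and 1.59% called lower. Proximal tubule S1 and S2 markers had a median log2 fold of -0.35 with 1 of 10 called lower, and sums of 4247 to 7089 CPM in KO_LP and 5169 to 9076 CPM in WT_LP. S3 markers had a median of -0.27 with 2 of 10 called lower, and sums of 2782 to 5115 CPM in KO_LP and 3762 to 5889 CPM in WT_LP. All 7 B and plasma cell markers tested had folds above 0 (3 called higher, median 1.63), with sums of 1352 to 14641 CPM in KO_LP and 332 to 2056 CPM in WT_LP. T and NK cell markers had 8 of 9 folds above 0 (0 called, median 1.07), with sums of 44.4 to 176 CPM in KO_LP and 20.2 to 92.8 CPM in WT_LP. Macrophage and dendritic markers had 10 of 11 above 0 (0 called, median 0.31), with sums of 1150.1 to 3779 CPM in KO_LP and 803 to 2055 CPM in WT_LP. One-sided marker folds also occurred in comparisons without KO_LP. For KO over WT on normal protein 10 of 11 macrophage and dendritic, 7 of 7 B and plasma cell and 8 of 8 fibroblast and mural markers lay below 0. For diet in WT 10 of 11 macrophage and dendritic markers lay above 0 and 7 of 7 B and plasma cell markers below. Of these lists 0 markers were called, where 0.574% and 0% of all genes tested were. The part of these cell types was not tested.

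Genes that serve the P450 enzymes, listed with 2 prostanoid P450 genes of other names, gave 61 rows from 72 listed, and 59 were tested. For diet in KO 3 were lower and 1 higher, which is 6.78% and near the 7.17% of all genes tested, with a median log2 fold of -0.03. Cyb5a, cytochrome b5 of the endoplasmic reticulum, had 494, 649 and 742 CPM in KO_LP and 837, 911 and 1037 CPM in KO_NP (log2 fold -0.55, SE 0.147, adjusted p = 0.0329). The ranges did not overlap. Its mitochondrial form Cyb5b fell as well (-0.39, SE 0.111, adjusted p = 0.0398), again without overlap. Ugt2b37, which joins glucuronic acid to oxidised products, had 159, 305 and 376 CPM in KO_LP and 360.5, 704 and 947 CPM in KO_NP (log2 fold -1.16, SE 0.274, adjusted p = 0.0236), and the ranges overlapped. Ptgis, the prostacyclin synthase and itself a P450 enzyme by structure, had 6.99, 8.26 and 10.8 CPM in KO_LP and 4.15, 4.87 and 5.77 CPM in KO_NP (log2 fold 0.80, SE 0.143, adjusted p = 0.00791), without overlap.

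The reductase Por did not pass the test: it had 146, 227 and 258 CPM in KO_LP and 205, 246 and 268 CPM in KO_NP (log2 fold -0.16, SE 0.116, adjusted p = 0.380). Alas1, which starts heme synthesis, had a diet fold in KO of 0.27 (SE 0.360), the aryl hydrocarbon receptor Ahr one of 0.42 (SE 0.165, adjusted p = 0.0985), the pregnane receptor Nr1i2 one of 0.28 (SE 0.223), and the epoxide hydrolases Ephx1 and Ephx2 had -0.02 (SE 0.0854) and -0.09 (SE 0.196). None of these 6 was called in any comparison. Nr1i3, the androstane receptor, was below the filter with a mean of 5.71 counts.

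Between genotypes, 3 of the 59 (5.08%) were higher in KO on normal protein, against 0.343% of all genes tested, and 1 (1.69%) on low protein, near the 1.35% of all genes tested. The 59 come from lists chosen with earlier results of these data known, so their share is no separate support. Blvrb, which reduces biliverdin made from heme, had 42.2, 57.4 and 85.4 CPM in KO_LP and 18.3, 21.2 and 25.6 CPM in WT_LP (log2 fold 1.497, SE 0.140, adjusted p = 3.0e-07). On normal protein it had 41.5, 54.4 and 67.8 CPM in KO_NP and 19.4, 23.4 and 25.9 CPM in WT_NP (log2 fold 1.21, SE 0.139, adjusted p = 8.3e-06). The groups did not overlap on either diet, and Blvrb lies 18.2 Mb from Fgf21 on chromosome 7. Ugt2b5 (log2 fold 1.32, SE 0.251, adjusted p = 0.00740) and Ugt2b37 (1.18, SE 0.274, adjusted p = 0.0483) were the others on normal protein. No partner gene was called for diet in WT.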

How the data were processed

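Kidney cortex RNA of 24 mice in 4 groups of 6 was read as 3' tags. The authors deposited raw counts per gene and, as a second table, a signal equal to those counts divided by 1 size factor per library. Per the submitters' processing notes the build was GRCm38 and DESeq2 1.22.2 was used. For the aligner and counter, the tool is not given in the sources used here. Coordinates came from GENCODE M21 and promoters from RefSeq.

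Raw counts were fitted with edgeR 4.0.16 in R 4.3.3: filterByExpr (15165 genes tested, 1756 not), TMM factors, 1 robust quasi-likelihood fit of 4 group means, two-sided tests, and Benjamini-Hochberg adjustment over all genes tested. CPM is the count over library size times factor, and SE is the absolute log2 fold over the root of F. The pipeline was tested on simulated data. Chi-square per degree of freedom between replicates was 6.01 to 69.9, so no pair was a duplicate, and the common biological coefficient of variation was 19.6%.

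The alternatives were DESeq2 size factors, no filter, at least 5 CPM in at least 6 libraries, DESeq2 1.42.0, limma 3.58.1 voom with quality weights, limma with a trend on log2 of the authors' normalized values plus 1, 1 surrogate variable from sva 3.50.0, only the libraries compared, without WT_NP 1, KO_LP 4 and KO_LP 6, and leaving out each library. The fit without WT_LP 3 and WT_LP 4 was added after seeing the data. Members and gene lists were chosen with earlier results of these data known. Values are given for genes called anywhere, the 3 smallest p of each comparison, the 10 highest means and genes picked for their role. Cyp2j6, Cyp2j7, Cyp2j11 and Cyp2d26, neighbours of called genes, were added after their values were seen.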

Additional observations from a re-analysis of the deposited data

Results flagged for a closer look

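Of 96 sets of 6 libraries looked at (24 named genes in 4 groups), 6 held a library whose gap to the nearest other, over the range of the group, was above Dixon's critical value, where chance flags about 1 in 20. In KO_LP 6, Cyp2j9 was at 23.3 CPM (8.51 to 13.1 in the other KO_LP libraries) and Cyp2a5 at 537 CPM (44.0 to 211). In KO_LP 1, Cyp4f14 was at 1.23 CPM (0.153 to 0.309 in the other 5). Cyp2a5 was at 364 CPM in WT_NP 6 (76.6 to 162 in the others), Cyp2r1 at 0.552 CPM in WT_LP 3 (1.09 to 1.26) and Cyp26b1 at 83.9 CPM in WT_NP 5 (9.93 to 21.05).

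Cyp4v3 had differences of opposite sign between genotypes on the 2 diets, neither past the threshold. The log2 fold of KO over WT was 0.47 on low protein (SE 0.192, adjusted p = 0.161) and -0.40 on normal protein (SE 0.195, adjusted p = 0.403). All 6 KO_LP libraries were above the WT_LP mean and all 6 KO_NP libraries below the WT_NP mean, and KO minus WT was 5.77 CPM larger on low than on normal protein. The direction by library was not itself tested, and the test of the difference of the log2 folds missed the threshold (0.86, SE 0.274, adjusted p = 0.194).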

How the results depend on the processing

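The count of P450 genes called stayed at 0 for diet in WT and for the difference of the diet effects under every alternative run. Shares of all genes tested that were called under the same setting stand in brackets. For diet in KO the count was 5 (7.17%). It was 8 with DESeq2 (11.8%), 2 with 1 surrogate variable (1.21%) and 0 without WT_NP 1, KO_LP 4 and KO_LP 6 (0.235%). With each library left out it was 0 to 8 (0.795% to 13.1%). For KO against WT on NP the count was 0 (0.574%). It was 1 with 1 surrogate variable (0.613%), 1 with only the libraries compared (0.706%), and 0 to 1 with each library left out (0.339% to 0.986%). For KO against WT on LP the count was 3 (2.93%). It was 5 with DESeq2 (5.79%), 5 with voom (5.96%) and 9 with 1 surrogate variable (12.9%). Without WT_LP 3 and WT_LP 4 it was 5 (5.76%). It was 1 with only the libraries compared (1.10%) and 1 without WT_NP 1, KO_LP 4 and KO_LP 6 (1.30%). With each library left out it was 1 to 4 (1.18% to 4.81%). The causes of these moves were not tested, though fits on fewer libraries have fewer samples. Of 120 pairs of a named gene and a comparison, 8 were called, and 0 of those changed sign. No paired analysis was possible because the labels give no replicate numbers. At 5 CPM in at least 6 libraries 24 of the genes were tested and Cyp4f14 and Cyp4f15 were not. With no filter on low counts all 40 genes were tested, Cyp1a1 with its 0 to 11 counts per library among them.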
